A study of Mus musculus with 4 samples.

Results

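The cytosolic ribosomal proteins were examined as a gene family in CD8+ T cells taken from tumour grafts of mice treated with anti-SIGLEC15 or with IgG. Members were the protein-coding genes whose symbols are made of Rpl or Rps and a number, with an optional a, x or l ending, together with Rplp0, Rplp1, Rplp2 and Rpsa. This rule found 81 genes among 36464 rows, 31 of the small and 50 of the large ribosomal subunit. Pseudogenes and the Rps6k kinases were outside it, and so were Rps3a1, Rpl36al, Rack1 and Fau, which also encode ribosomal proteins. The percutaneous grafts were made in wild-type male C57BL/6 mice, 6 given intraperitoneal IgG and 6 given intraperitoneal anti-SIGLEC15 for 2 weeks, and were collected on day 19. SIGLEC15 is a sialic acid-binding receptor studied as an immune checkpoint, and the comparison asks how blocking it alters CD8+ T cells in the tumour. Each sequenced library mixed the cell pellets of 3 samples, which gave 2 libraries per treatment, numbered 1 and 2 within each treatment. The tumour line and the age of the mice were not given in the sources used here, and the p-values measure only the spread between such pools.

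The ribosome is built from a small subunit, which reads the mRNA, and a large subunit, which forms the peptide bond. Each subunit holds ribosomal RNA and 1 copy of nearly every ribosomal protein, so cells make these proteins in matched amounts. In T cells, activation through the antigen receptor raises Myc and mTOR signalling and with them ribosome production, and quiescent cells lower it. Ribosomal protein mRNAs are short, abundant and long-lived, and they have given rise to many processed pseudogenes, which are intronless copies of an mRNA inserted elsewhere in the genome.

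The libraries held between 14854802 and 16026197 counted reads. Levels are given as RPKM, reads per kilobase of exon with each library scaled to 1000000 counted reads. IgG replicate 1 stood apart: its log2 values correlated with those of IgG replicate 2 at r = 0.88, against 0.97 between the anti-SIGLEC15 libraries. The labelled CD8+ T cells were checked by their markers, and Cd8a stood at 115, 351, 290 and 315 RPKM. Every set of 4 values is in the order IgG replicate 1, IgG replicate 2, anti-SIGLEC15 replicate 1, anti-SIGLEC15 replicate 2. The geometric mean of the 23 tested T cell identity genes was 23.6, 66.8, 65.2 and 63.6 RPKM, and 22 of the 23 were lowest in IgG replicate 1. The 14 tested hepatocyte and hepatoma genes ran at 97.3, 29.1, 72.8 and 23.7 RPKM, and the 9 tested neutrophil genes at 36.3, 6.27, 11.1 and 16.7 RPKM. The 5 tested red cell genes were at 50.6, 139, 10.4 and 2.55 RPKM, all 5 lower in both treated libraries and highest in IgG replicate 2, with a median log2 fold change of -4.42. In these bulk libraries fewer cells of a type and less RNA per cell cannot be told apart. Mitochondrially encoded genes took 11.9%, 12.96%, 8.91% and 18.4% of counted reads.

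The 81 member genes took close to 10% of all counted reads in each of the 4 libraries. They held 9.98%, 10.3%, 10.3% and 9.85% of counted reads, a mean of 10.1% ± 0.234 (SD, n = 2) under IgG and 10.1% ± 0.324 (SD, n = 2) under anti-SIGLEC15. The groups overlapped, and an exact two-sided permutation test over the libraries gave p = 0.667, where the smallest p that 2 against 2 libraries can give is 0.333. Each share rests on at least 1463079 member reads, and the 95% Wilson interval of the lowest, 9.83% to 9.86%, covers counting error only. Reads placed on pseudogene copies are outside these shares. Those on 217 pseudogene rows named after Rpl or Rps genes equalled 8.65%, 7.10%, 7.30% and 6.98% of the member reads. Of the reads outside mitochondrially encoded genes, the members held 11.3%, 11.8%, 11.3% and 12.1%, and the sign of the group difference turned from -0.064 to 0.109 percentage points.

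Within the family, levels spanned several orders of magnitude. The mean over libraries exceeded 1000 RPKM for 19 members, lay between 100 and 1000 for 54, and was at or under 50 for 7. The most abundant was Rplp1, an acidic protein of the stalk that recruits translation factors to the large subunit, at 3525, 3918, 4180 and 3740 RPKM. Rps15, a small subunit protein near the decoding centre, followed at 2925, 3334, 3348 and 3194 RPKM. Rplp0, the base of the stalk, had 2649, 2918, 2736 and 2592 RPKM. For each of these 3 genes the treatment groups overlapped. At the other end stood Rpl3l, the muscle form of the peptidyl transferase protein Rpl3, at 0.34, 0.31, 0.19 and 0.49 RPKM. Rpl24, a core large subunit protein, was at 0.67, 1.69, 1.61 and 1.31 RPKM. Rpl39l, a paralog of Rpl39 best known from the testis, was at 0.08, 9.62, 0.997 and 0.41 RPKM.

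**Figure D1:**
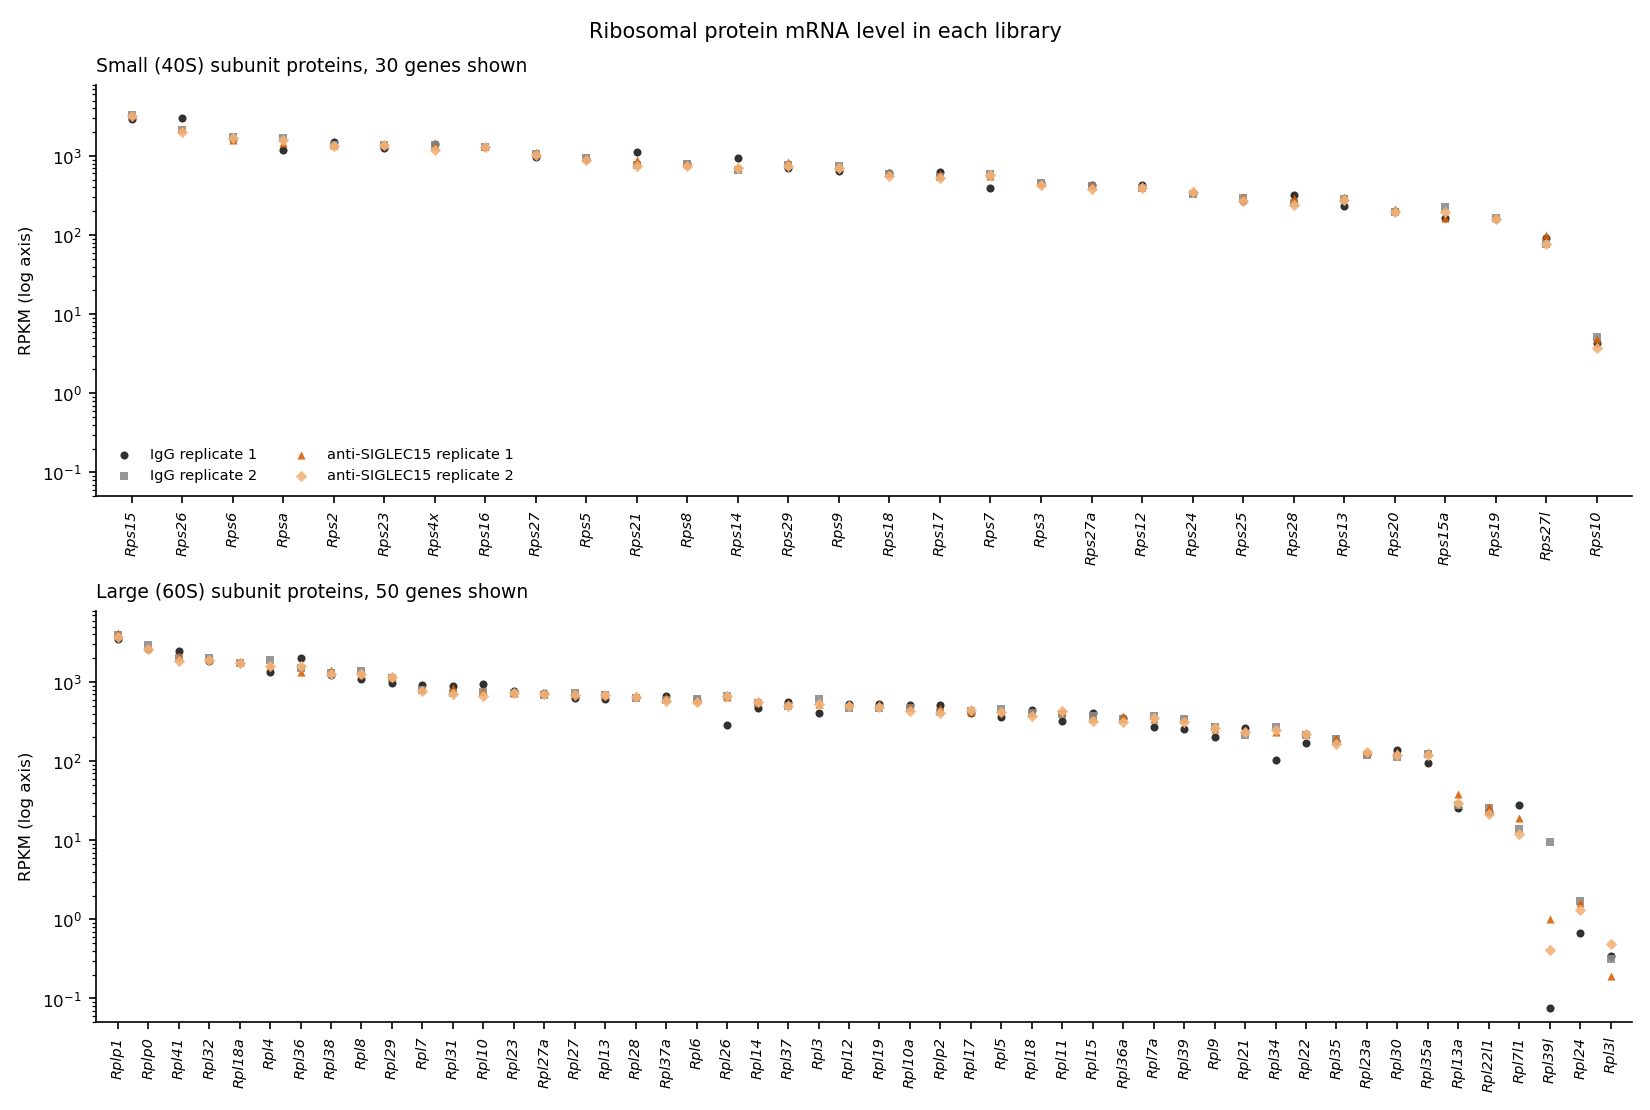
RPKM on a log axis for 30 of the 31 small subunit and all 50 large subunit genes, ordered by mean, with 1 symbol per library. The 4 symbols of most genes lie on top of each other between 100 and 4180 RPKM, Rpl26 and Rpl34 have 1 low point each, in IgG replicate 1, and the lowest genes are Rps10 in the upper panel and Rpl39l, Rpl24 and Rpl3l in the lower.

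The order of members depends on the gene length used. The deposited values divide by all annotated exon bases, and 74 members above 50 RPKM differed 44.3-fold from highest to lowest on that scale. Divided by the length of each gene's principal coding transcript, the same members differed 37.6-fold, and the 2 orders correlated at Spearman rho 0.84 across these genes, which share libraries and are not independent replicates. Rps26, a small subunit protein at the mRNA exit, moved from rank 4 to rank 1 of the members. Rps14, a small subunit protein next to Rps26, moved from rank 26 to rank 8, and Rps18 from rank 36 to rank 10. Differences between libraries for 1 gene are free of this choice.

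No ribosomal protein gene differed between treatments by the test. With limma on log2(RPKM + 1) across 12484 genes, 79 members were tested, Rpl3l and Rpl39l having too few values of at least 1 RPKM. At an adjusted p of 0.05, 0 of 79 members were called, against a background of 0% of all tested genes. The smallest unadjusted p of a member was 0.232 and none was under 0.05, while 146 of the 12484 genes were. The limma-voom test on recovered reads also called 0 members of 80, with 0 at an unadjusted p under 0.05 and 90 of 15061 genes. The median log2 fold change of the members was 0.03 and that of all tested genes 0.02. Its size was smaller in the family, with a median absolute value of 0.08 against 0.20 over all tested genes and 0.21 over 470 other genes of at least 100 RPKM. For 74 of the 79 members the absolute value was under 0.26.

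**Figure D2:**
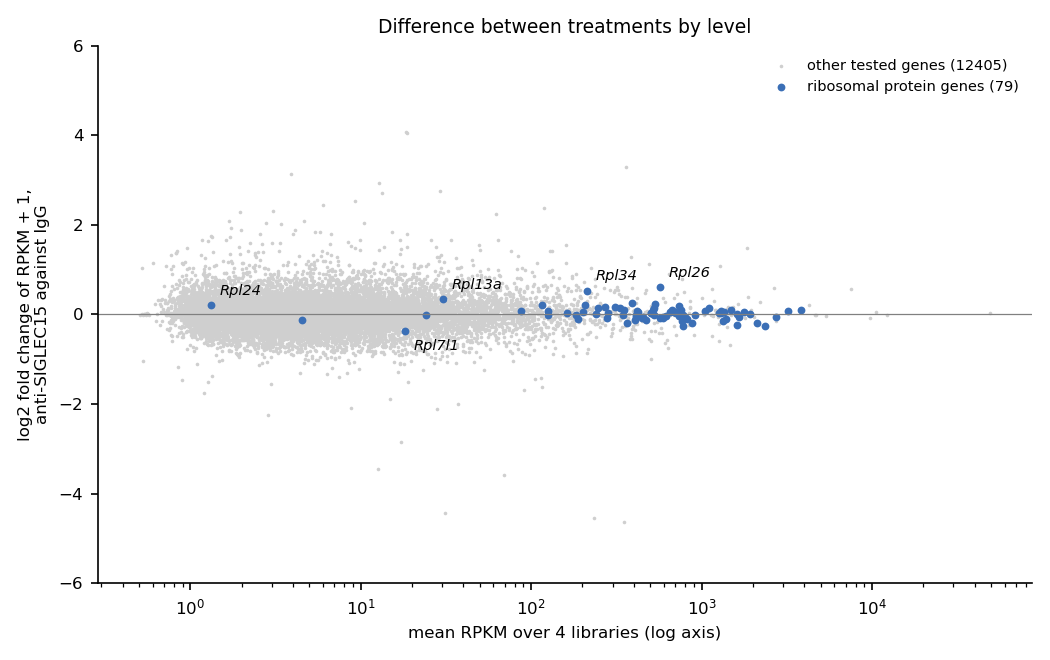
Log2 fold change of RPKM + 1, anti-SIGLEC15 against IgG, by mean RPKM on a log axis, with 79 ribosomal protein genes in blue over the other genes of the 12484 tested in grey. The blue points lie between -0.37 (Rpl7l1) and 0.60 (Rpl26), and no gene passed the adjusted p of 0.05.

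Members whose 2 anti-SIGLEC15 libraries both lay above both IgG libraries numbered 10 of 79, or 12.7%, against 12.1% of all tested genes. Those with both below numbered 5, or 6.33%, against 6.02%. On the deposited scale both shares are near the background. Under median-of-ratios scaling 1 of 79 members lay higher and 8 lower, against 10.7% and 12.1% of all tested genes. Under upper-quartile scaling 16 of 79 lay higher and 7 lower, against 14.1% and 5.34%. Scaling moves all genes together, and the balance of directions moved with it in both sets. The share lying higher moved farther among the members than among all tested genes.

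Among the members higher in both treated libraries was Rpl11, which joins Rpl5 and the 5S RNA in a particle that can bind Mdm2. Rpl11 had 325, 392, 417 and 432 RPKM, and its log2 fold change of 0.25 ± 0.22 (SE) had a limma adjusted p of 1.00. Its groups did not overlap, but IgG replicate 1 lay farther below IgG replicate 2 than IgG replicate 2 lay below the treated libraries. Rpl22, known for a part in T cell development, had 171, 216, 224 and 219 RPKM. Rpl29, a surface protein of the large subunit, had 984, 1111, 1171 and 1150 RPKM. In both genes IgG replicate 1 was lowest and the other 3 libraries lay close together. Rpl13a, the protein also described in inflammatory translation control, had 25.6, 27.6, 38.8 and 29.9 RPKM, with anti-SIGLEC15 replicate 1 high. The log2 fold changes of these 4 genes ran from 0.15 to 0.35. Scaling to T cell identity genes shifted the median of all tested genes to -0.56 and put 91.5% of them below 0. All 79 members then lay below 0, these 4 among them. On that scale 0 members lay higher and 15 lower in both treated libraries, against 2.88% and 18.9% of all tested genes.

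Among the members lower in both treated libraries was Rpl15, a large subunit protein mutated in some patients with Diamond-Blackfan anaemia, at 407, 368, 356 and 326 RPKM. Its log2 fold change was -0.18 ± 0.22 (SE), with a limma adjusted p of 1.00. Rps4x, the X-linked form of a small subunit protein, had 1430, 1374, 1329 and 1202 RPKM. Rps2, which lines the mRNA entry channel, had 1520, 1371, 1359 and 1339 RPKM. Each of these 3 genes was highest in IgG replicate 1 and lowest in anti-SIGLEC15 replicate 2, and the gaps between groups were no wider than those within them. Rpl18 had 442, 408, 403 and 376 RPKM and Rpl6 had 600, 616, 590 and 562 RPKM, with log2 fold changes of -0.13 and -0.08.

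The proportion of small to large subunit genes depended on how it was summarised. Of the members above 50 RPKM, 30 belong to the small and 44 to the large subunit. The log2 ratio of the median small to the median large subunit gene was 0.26, 0.32, 0.40 and 0.38, higher in both treated libraries, with an exact permutation p of 0.333, the smallest possible. The log2 ratio of summed reads was -0.30, -0.35, -0.37 and -0.35, where the groups overlapped and p was 0.667. The remaining stalk genes were at moderate levels. Rplp2, the partner of Rplp1, had 513, 415, 467 and 403 RPKM, and Rpl12, which sits beside the stalk base, had 534, 469, 528 and 494 RPKM. The treatment groups overlapped for both genes.

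Members with roles beyond the ribosome core were as level. Rps6, the S6 kinase substrate used as a readout of mTOR activity, had 1634, 1760, 1590 and 1676 RPKM. Rpl5, the partner of Rpl11, had 359, 454, 433 and 422 RPKM, lowest in IgG replicate 1. Rps19, the gene most often mutated in Diamond-Blackfan anaemia, had 160, 163, 171 and 158 RPKM. The treatment groups overlapped for these 3 genes. Rpl38, studied for its part in translating Hox mRNAs, had 1224, 1308, 1418 and 1248 RPKM. Rps25, needed for several viral internal ribosome entry sites, had 266, 290, 303 and 267 RPKM, and Rpl10a, also studied in selective translation, 512, 471, 479 and 430 RPKM. Rps27a, made as a fusion with ubiquitin, had 431, 416, 426 and 383 RPKM. The treatment groups overlapped for these 4 genes too.

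Most members varied little across the 4 libraries. The highest library exceeded the lowest by a median of 1.19-fold over 73 members of at least 100 RPKM, against 1.56-fold over 470 other genes at that level. A range over 2-fold occurred in 2 of those 73 members, or 2.74%, and in 159 of the 470 others, or 33.8%. The SD of the log2 ratio between libraries was 0.08 to 0.12 across these members for the pairs among IgG replicate 2 and both anti-SIGLEC15 libraries. With IgG replicate 1 in the pair it was 0.28 to 0.34. The proportions within the family thus differed most for the library that was also lowest in T cell identity genes. Hepatocyte genes were high in anti-SIGLEC15 replicate 1 as well. Its SD with IgG replicate 1 was 0.28, against 0.34 for IgG replicate 2 and 0.33 for anti-SIGLEC15 replicate 2. With IgG replicate 2 its SD was 0.12 and with anti-SIGLEC15 replicate 2 it was 0.11, while those libraries gave 0.08 with each other. The part of other cell types in this was not tested.

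**Figure D3:**
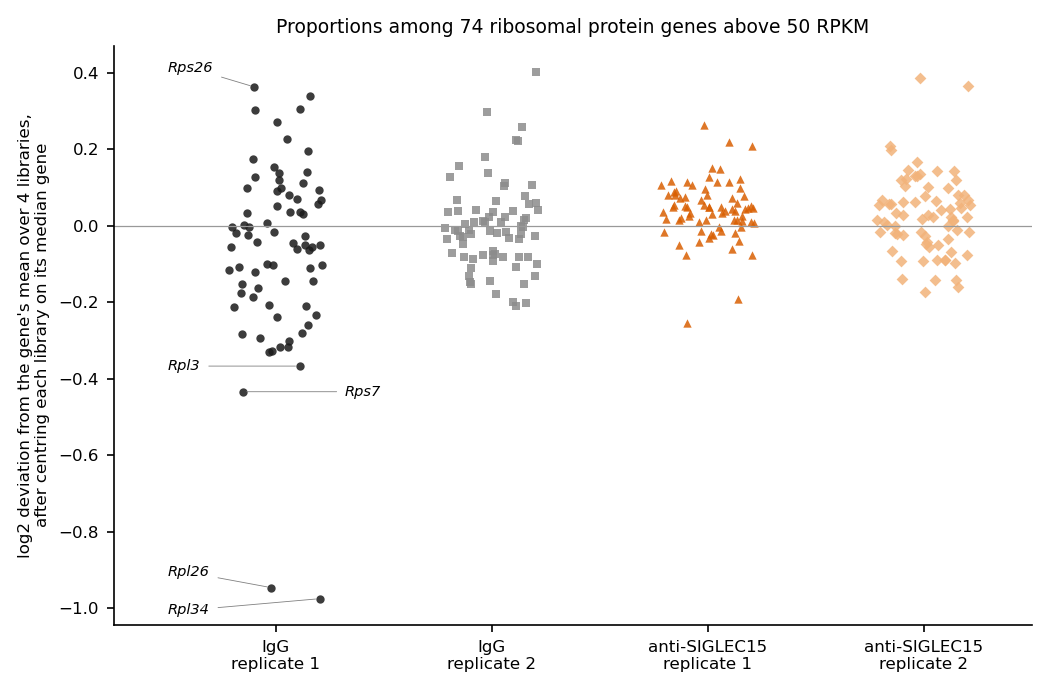
Log2 deviation of each of 74 ribosomal protein genes from its own mean, after centring every library on its median gene, with 1 point per gene and library. In IgG replicate 1, 24 genes lie beyond 0.2 in either direction, against 7, 4 and 3 in the other libraries, and Rpl34 at -0.97 and Rpl26 at -0.95 lie farthest out.

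Rpl26 and Rpl34 were the 2 members above 50 RPKM with a range over 2-fold. Rpl26, a large subunit protein at the exit tunnel also known to bind p53 mRNA, lies on chromosome 11 (chr11:68901583-68906989, GRCm38) and had 284, 672, 652 and 676 RPKM. Rpl34, a large subunit protein, lies on chromosome 3 (chr3:130726831-130730398) and had 103, 268, 232 and 247 RPKM. For both genes IgG replicate 1 was low, IgG replicate 2 lay inside or next to the treated range, and the treatment groups overlapped. The log2 fold changes were 0.60 ± 0.44 and 0.53 ± 0.49 (SE), each with a limma adjusted p of 1.00. Without IgG replicate 1 they were -0.02 and -0.16, and without IgG replicate 2 they were 1.22 and 1.21. In that last fit 3 of the members were called, Rpl26, Rpl34 and the lower Rps26, against a background of 18.6% of all tested genes. Across alternatives the adjusted p ran from 4.28e-06 to 1.00 for Rpl26 and from 7.80e-05 to 1.00 for Rpl34.

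Both genes have a processed pseudogene that spans their whole coding sequence and differs from it in 2 bases. For Rpl26 this is Gm15772 on chromosome 5 (chr5:3236431-3236868, plus strand), 438 bases long and 99.5% identical to the aligned mRNA. For Rpl34 it is Rpl34-ps1 on chromosome 6 (chr6:71124610-71124963, plus strand), 354 bases long and 99.4% identical. The letters around each difference are shown because, within the coding sequence, only these bases tell a read of the gene from a read of its copy. The differing base is in capitals, and positions count from 1 at the 5′ end of the gene's principal transcript in GENCODE M21. Rpl26 differs from Gm15772 by C224T and T335C, and Rpl34 differs from Rpl34-ps1 by T358C and C544G, the gene's base first and the copy's base last.
Rpl26 around 224: gttcaggttgttcgCggacactacaaaggc
Gm15772 at the same place: gttcaggttgttcgTggacactacaaaggc
Rpl26 around 335: ggcacaaccgtccaTgtgggcatccacccc
Gm15772 at the same place: ggcacaaccgtccaCgtgggcatccacccc
Rpl34 around 358: aaagcacctaaatcTgcatgtggcgtgtgc
Rpl34-ps1 at the same place: aaagcacctaaatcCgcatgtggcgtgtgc
Rpl34 around 544: atcgttgtgaaagtCttgaaggcacaagca
Rpl34-ps1 at the same place: atcgttgtgaaagtGttgaaggcacaagca

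In IgG replicate 1 the gene was low and its copy high, while their sum differed little between libraries. Rpl26 had 410, 970, 941 and 975 RPM (reads scaled to 1000000 per library, with no gene length) and Gm15772 had 986, 268, 436 and 316, which is 70.6%, 21.7%, 31.6% and 24.4% of the 2 together. The sums were 1395, 1239, 1377 and 1291 RPM, a 1.13-fold range. Rpl34 had 271, 708, 613 and 652 RPM and Rpl34-ps1 had 554, 213, 291 and 213, or 67.1%, 23.1%, 32.2% and 24.6% of the 2 together. Their sums were 825, 920, 905 and 865 RPM, a 1.12-fold range. In both pairs the copy held more reads than the gene in IgG replicate 1 and fewer in each of the other 3 libraries. The hepatocyte gene Alb, at 2795, 556, 1089 and 625 RPKM, also peaked in IgG replicate 1, with anti-SIGLEC15 replicate 1 next. Of the 14 tested hepatocyte and hepatoma genes, 9 peaked in the former library and 5 in the latter. Their median was 50.8, 17.4, 58.4 and 13.7 RPKM, which is largest in anti-SIGLEC15 replicate 1. The part of these genes in the pattern was not tested. How the authors placed reads that match both loci is not given in the sources used here.

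**Figure D4:**
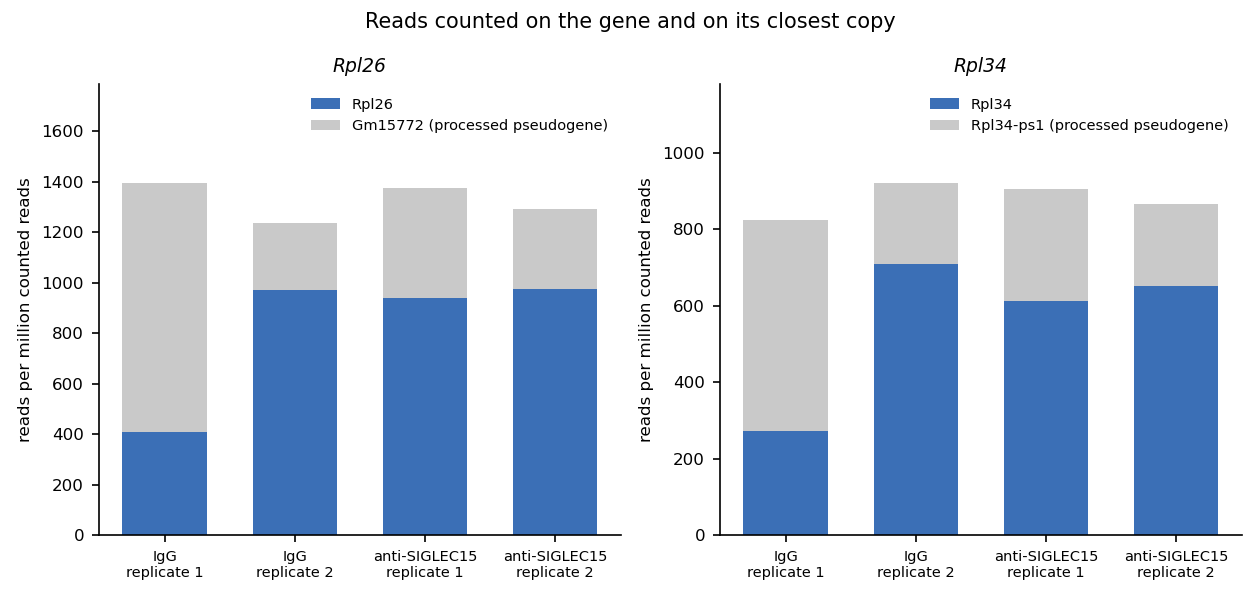
RPM on Rpl26 and Rpl34 (blue) and, stacked on them, on their closest processed pseudogenes Gm15772 and Rpl34-ps1 (grey), for the 4 libraries. The blue part is lowest in IgG replicate 1, where the grey part is largest, and the full height of the bars differs by 1.13-fold for Rpl26 and 1.12-fold for Rpl34.

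Near-identical copies were common in the family. Pseudogenes with at least 95% identity over at least 200 aligned bases were found for 72 of the 81 members, with a median of 4 and up to 56, for Rpl21. Among the 67 members above 50 RPKM that have such copies, 39 had 10% or more of the summed reads on them. The share on copies was highest in IgG replicate 1 for 37 of the 67 members and in IgG replicate 2 for 14. It was highest in anti-SIGLEC15 replicate 1 for 14 and in anti-SIGLEC15 replicate 2 for 2. Some of these ranks rest on small differences, as for Rpl12 at 29.97%, 29.87%, 29.31% and 29.12%. When copies were added, the 2 members over 2-fold became 0, and the largest range was 1.51-fold. Rpl3, which shapes the peptidyl transferase centre, had 1282, 1932, 1692 and 1674 RPM alone and 1956, 2384, 2171 and 2083 with its copies. Rps7, a small subunit protein, had 797, 1198, 1130 and 1167 alone and 1435, 1787, 1742 and 1735 with copies. For both genes the low value of IgG replicate 1 became milder but did not vanish. Rpl37 went the other way, with 942, 838, 922 and 840 RPM alone and 1658, 1123, 1305 and 1143 with its copies. There the gene was level and the copy was high in IgG replicate 1. Over the 67 members the median range was 1.18-fold alone and also 1.18-fold with copies.

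Of the 7 members at or under 50 RPKM, 4 are the paralogs Rpl3l, Rpl39l, Rpl7l1 and Rpl22l1, and 3 are the core members Rpl24, Rpl13a and Rps10. Each of these 3 has a transcript that another annotated gene overlaps on the same strand. The overlap covered 71.5% of the principal transcript of Rpl24, 59.3% of that of Rpl13a and 53.6% of that of Rps10, and in addition 10.7% of that of Rpl19. The genes that overlap them, Gm28037 for Rpl24, Gm45713 for Rpl13a and RPS10-NUDT3 for Rps10, were not analysed here. Rps10, a small subunit protein near the mRNA entry, had 4.32, 5.16, 4.80 and 3.73 RPKM, while its pseudogene Rps10-ps2 on chromosome 16 had 1737, 1351, 1294 and 1242 RPKM. For Rpl24, 97.3% to 98.8% of the summed reads were on copies, and the sum was 57.5, 63.8, 64.3 and 63.0 RPM. The part of the overlaps in these low counts was not tested. Rpl19, with the small overlap, had 525, 475, 535 and 484 RPKM, a usual level for the family. Without Rpl13a, Rpl24 and Rps10 the members held 9.97%, 10.3%, 10.3% and 9.84% of counted reads. Leaving them out could hardly move the share, since they held 867, 11 and 160 of 1598942 member reads in IgG replicate 1.

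Paralogs that can take the place of a core protein were minor in every library. Rpl22l1, the paralog of Rpl22, made up 11.9%, 10.5%, 10.5% and 9.0% of the pair's summed RPKM. Rps27l, a p53-responsive paralog of Rps27, made up 8.56%, 6.70%, 8.16% and 7.09%. Rpl7l1, a paralog of Rpl7 found in pre-ribosomes, made up 2.96%, 1.75%, 2.29% and 1.54%. In all 3 pairs the share was highest in IgG replicate 1. The treatment groups overlapped for Rps27l and Rpl7l1, and for Rpl22l1 the nearest libraries of the treatments, at 10.53% and 10.52%, all but met. Rpl7l1 itself had 28.0, 14.04, 19.1 and 11.96 RPKM, and its log2 fold change of -0.37 turned to 0.10 without IgG replicate 1. Rpl39l was read 1, 124, 13 and 5 times, so its share of the pair with Rpl39 was 2.78% in IgG replicate 2 and at most 0.288% elsewhere. That 1 library carried nearly all Rpl39l reads, and no test applies to it. Rpl36al, the intronless paralog of Rpl36a, made up 0.512%, 0.883%, 0.947% and 1.05% of its pair, from 39, 64, 75 and 67 reads. Both treated libraries lay above both IgG libraries for Rpl36al, and its log2 fold change of 0.40 had a limma adjusted p of 1.00. Rpl3l made up 0.0932% or less of its pair with Rpl3.

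The start sites of the family share letters that the symbol rule did not use. RefSeq start sites on GRCm38.p6 were matched for 61 of the 81 members, 73 sites in all. An unbroken run of at least 8 C or T letters on the sense strand, between 30 bases before and 20 after the start, was present for 32 of the 61 genes, or 52.5%, against 22.9% of 27025 genes. The same window held a run of 8 A or G letters for 11.5% of members and 24.6% of all genes. Many of these runs end before the start and so lie outside the mRNA. A run that included the start base itself was present for 17 of the 61 genes, or 27.9%, against 4.59% of all genes. As background, an mRNA that begins with such letters is said to carry a 5′ terminal oligopyrimidine (TOP) tract, through which mTOR and Larp1 set how strongly it is translated. The letters CCGGAAG, the core that ETS factors bind, stood on either strand of the 300-base promoter for 41.0% of members and 9.93% of all genes. TATAAA stood there for 11.5% and 15.7%. These matches describe letters and not binding. The windows of 5 members whose run includes the start show it in capitals, with the RefSeq start at base 31.
Rps6, chr4:86857348-86857397, minus strand: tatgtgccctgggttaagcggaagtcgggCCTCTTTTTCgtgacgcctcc
Rps27, chr3:90213629-90213678, minus strand: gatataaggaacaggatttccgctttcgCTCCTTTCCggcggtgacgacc
Rpl7a, chr2:26910777-26910826, plus strand: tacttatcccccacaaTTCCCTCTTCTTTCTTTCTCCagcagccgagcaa
Rpl14, chr9:120571487-120571536, plus strand: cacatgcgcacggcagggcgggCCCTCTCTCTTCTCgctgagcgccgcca
Rpl15, chr14:18270967-18271016, minus strand: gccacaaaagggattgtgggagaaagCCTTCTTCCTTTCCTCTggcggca

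Of the ribosomal proteins outside the symbol rule, 3 abundant ones were as level as most members. Rack1, a scaffold on the small subunit, had 486, 471, 454 and 431 RPKM, lower in both treated libraries. Fau, the precursor of the small subunit protein eS30, had 1148, 1316, 1298 and 1307 RPKM. Rps3a1 had 1889, 2100, 1957 and 1972 RPKM, and the groups overlapped for it and for Fau.

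The rest of the translation machinery showed no called gene either. Of 22 other genes with a TOP start, 0 lay higher and 5 lower (22.7%) in both treated libraries, with a median log2 fold change of -0.03. Of 35 initiation and elongation factors, 2 lay higher (5.71%) and 7 lower (20%), with a median of -0.05. Over all tested genes these shares were 12.1% higher and 6.02% lower. Eef1a1, which delivers aminoacyl-tRNA, had 4505, 6471, 5245 and 5377 RPKM, and Eef2, which moves the ribosome along, had 1458, 1827, 1571 and 1603 RPKM. IgG replicate 1 was lowest for both. It was also lowest for 33 of the 74 members above 50 RPKM, or 44.6%, which is near its 43.7% of all tested genes.

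Of 50 ribosome biogenesis genes 4 lay higher (8.0%) and 2 lower (4.0%) in both treated libraries, against the same 12.1% and 6.02%, with a median log2 fold change of -0.11. In anti-SIGLEC15 replicate 2, 37 of the 50 were lowest, a larger share than the 36.7% of all tested genes that were lowest there. Ncl, which shapes ribosomal RNA precursors, had 107, 81.3, 92.9 and 68.4 RPKM. Npm1, a nucleolar chaperone, had 550, 443, 494 and 399 RPKM, and Fbl, the ribosomal RNA methyltransferase, had 43.9, 35.7, 41.1 and 30.8 RPKM. In these 3 genes replicate 1 exceeded replicate 2 in both treatments. Of 76 mitochondrial ribosomal protein genes, 11 lay higher (14.5%, near the 12.1% of all tested genes) and 0 lower in both treated libraries, with a median of 0.02.

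Regulators of ribosomal protein synthesis were level as a group, with a median log2 fold change of -0.01 over 22 genes. Myc, which drives ribosome production, had 113, 106, 161 and 95.7 RPKM, high in anti-SIGLEC15 replicate 1 alone. Larp1, which binds TOP mRNAs, had 28.1, 24.4, 26.8 and 23.7 RPKM, and Mtor had 2.86, 3.21, 3.43 and 2.76 RPKM. For all 3 the treatment groups overlapped.

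**Figure D5:**
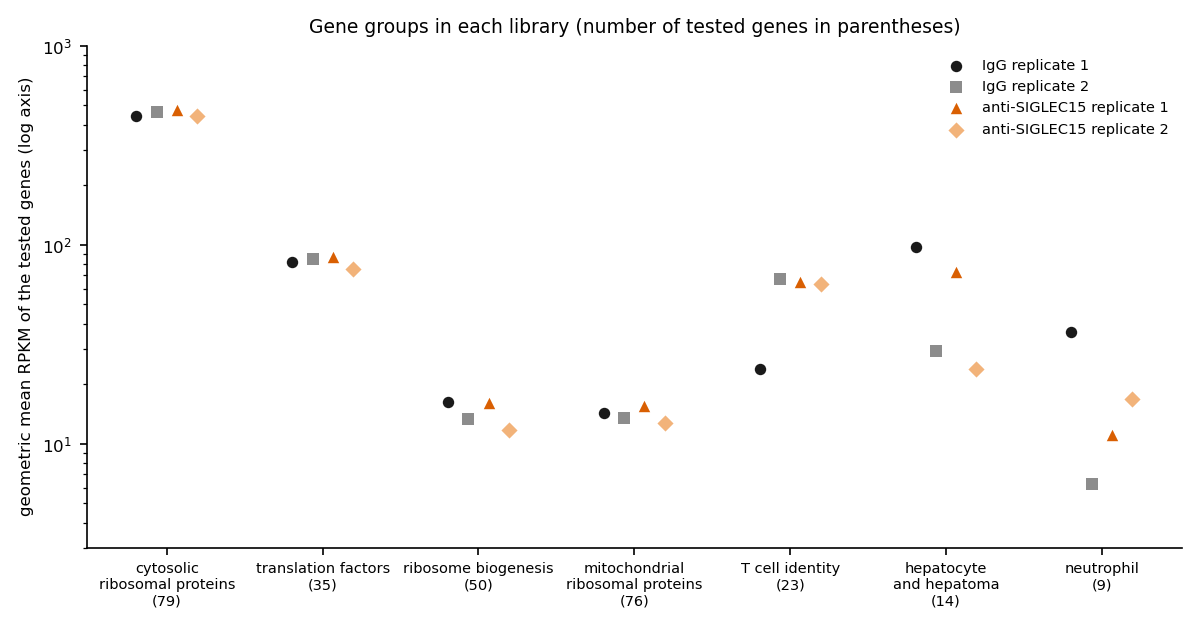
Geometric mean RPKM of the tested genes of 7 groups on a log axis, with 1 symbol per library. Cytosolic ribosomal proteins lie between 443 and 476 RPKM in the 4 libraries, while T cell identity genes lie at 23.6 RPKM in IgG replicate 1 and from 63.6 to 66.8 RPKM in the others.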

How the data were processed

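Poly(A)-selected RNA of 4 pooled libraries was sequenced on a DNBSEQ-G50, per the labels' protocols. The authors deposited 1 table of RPKM values per library, keyed by Ensembl gene. The unit was inferred from the deposited values: 98.9% to 99.0% of values of up to 1000 reads gave whole reads within 0.02 when multiplied by GENCODE M21 exon length. Builds GRCm38 and mm10 are named per the submitters' processing notes. Which aligner, counter and strand setting were used is not given in the sources here.

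Symbols came from GENCODE M21 and matched 36347 rows. Genes that reached 1 RPKM in 2 or more libraries were tested on log2(RPKM + 1) with limma 3.58.1 (R 4.3.3, trend and robust), Benjamini-Hochberg over 12484 genes at 0.05; recovered reads went to limma-voom as an alternative. The procedure was tested on simulated data, in which all libraries shared the same means apart from the changes put in. No simulated library stood apart as IgG replicate 1 did, so that test does not give the power on these data. Group levels are geometric means of RPKM + 1, less 1. Copies were found with blastn 2.17.0. Single values per library were compared by exact permutation. Members and gene lists were chosen with earlier results of these data known.

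Named genes were the 5 smallest p values among members higher and among those lower in both treated libraries, the 3 highest and 3 lowest means, the 3 least constant, the stalk, paralogs and set regulators; some genes this rule picks are not reported here. Rpl26, Rpl34, Rpl3, Rps7, Rpl37, Rpl19, Rps10, Rps14, Rps18 and Rps26 were described after their values were seen. Alternatives were other scalings, filters, a pseudocount of 0.1, the replicate block and leaving out each library.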

Additional observations from a re-analysis of the deposited data

How the results depend on the processing

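The absence of called members held under every scaling, filter, pseudocount and test tried, and only leaving out IgG replicate 2 changed it. Leaving out each library in turn gave 0 to 2251 called genes and 0 to 3 called members; the lone library left in a group is then taken to vary as the remaining pair does. The values were 135 genes without IgG replicate 1 and 2251 without IgG replicate 2. Log2 fold changes ranged from -0.018 to 1.22 for Rpl26, from -0.16 to 1.21 for Rpl34 and from -0.84 to 0.10 for Rpl7l1. The median log2 fold change of members ranged from -0.02 to 0.07 on leaving out a library. It was -0.036 under median-of-ratios scaling, 0.10 under upper-quartile scaling and -0.65 when scaled to T cell identity genes, where that of all tested genes was -0.56. Members higher in both treated libraries numbered 1, 16 and 0 under these scalings, and members lower numbered 8 under the first and 15 under the last. Over all tested genes 10.7%, 14.1% and 2.88% lay higher and 12.1%, 5.34% and 18.9% lower. Scaled to T cell identity genes, the log2 fold change was -0.32 for Rpl13a, -0.43 for Rpl11, -0.47 for Rpl22, -0.53 for Rpl29, -0.076 for Rpl26 and -0.15 for Rpl34. The members' share of reads outside mitochondrially encoded genes differed by 0.109 percentage points in place of -0.064. Of 211 alternative values, 188 kept direction and side of the threshold or stayed within the spread. The cause of these shifts was not tested. With the replicate number as a block, 0 genes and 0 members were called and the median stayed at 0.03; same-numbered libraries deviated together at r = 0.33 over 12484 genes, and the labels do not say that a number marks a shared batch. With 2 pools per group no single value per library can reach a p below 0.333.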
